A study of Mus musculus with 6 samples.

Results

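Expression of 10 genes of gremlin and bone morphogenetic protein (BMP) signaling was examined in kidneys of iron-deficient (FeD) and control mouse pups, out of 24422 gene symbols counted. They were the antagonist Grem1, the ligands Bmp2, Bmp4, Bmp6 and Bmp7, and the BMP target genes Id1, Id2, Id3, Smad6 and Smad7. Grem1 was chosen by its counts in these same libraries, where it appears in FeD kidneys, and the other genes were selected by name, as kidney BMPs and BMP targets, with earlier results of these data known. Values of the 10 genes in FeD and control kidneys are therefore descriptions and carry no test. Other genes of the pathway, listed by role, were tested.

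BMPs are secreted ligands that bring together type I and type II receptors on the cell surface. The receptors phosphorylate SMAD1, SMAD5 and SMAD9, which join SMAD4, enter the nucleus and switch on the Id genes and their own inhibitors, Smad6 and Smad7. Gremlin binds BMPs outside the cell and keeps them from their receptors, and in the embryonic kidney gremlin-1 holds back Bmp4 so that the ureteric bud can grow out and branch. Bmp7 maintains nephron progenitors, and Bmp6 made in the liver drives expression of hepcidin, the hormone that limits iron uptake.

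The 6 kidneys came from wild type C57BL/6 pups at postnatal day 15, 3 in the FeD group and 3 in the control group, each sequenced as its own library. The dams were 8 weeks old at the start. FeD dams received a synthetic feed holding 2 to 6 ppm iron, whereas control dams received feed holding 220 ppm iron. Each diet was given for 1 month before mating, according to the sample labels, and continued through gestation and nursing. The methods of the study give a shorter period before mating. The control diet was a standard chow, so iron and other differences between the diets cannot be told apart, and neither can diet and litter, because litters were not given. In whole kidneys, fewer cells of a type and less RNA per cell cannot be told apart.

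The libraries held 13732173 to 20853293 counts on genes, and the smallest signal taken as visible, 3 counts, equalled 0.144 to 0.218 CPM (counts scaled to library size). FeD kidney 2, the shallowest library, stood apart by genes of the adrenal gland. Cyp11b1, the last enzyme of corticosterone synthesis, had 1828 raw counts there and 0 to 6 in the other kidneys. The 5 adrenal markers summed to 10448 normalized counts there, 1278 in control kidney 1 and 133.5 to 209 in the remaining kidneys. In control kidney 1 most of the sum was Hsd3b1, with 1032 raw counts. Results are given with and without FeD kidney 2 where they rest on it. All 8 kidney markers, from the podocyte gene Nphs1 to the collecting duct gene Aqp2, were present in every library. Normalized counts are raw counts scaled by edgeR's TMM factors to the mean library size. Fold changes are FeD over control, on the log2 scale, with the standard error (SE) of edgeR's quasi-likelihood fit.

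Grem1 was close to absent in control kidneys and present in every FeD kidney. Its raw counts were 2, 3 and 3 in control kidneys 1, 2 and 3, at or below the visible limit, and 282, 121 and 861 in FeD kidneys 1, 2 and 3. Normalized counts were 1.92, 3.32 and 2.67 in control kidneys and 282, 157 and 744 in FeD kidneys, with means of 2.64 ± 0.702 and 394 ± 309 (SD, n = 3 each). The lowest FeD kidney lay far above the highest control kidney, and FeD kidney 3 lay far above the other FeD kidneys. Summed over each group and corrected for library size, 1264 counts stood against 8, a ratio of 165.7 with an exact 95% interval of 83.8 to 384.6 that covers counting error only. The fitted log2 fold change was 7.19 (SE 0.82) and depends on the prior count. It was 7.58 without FeD kidney 2 and 6.35 without FeD kidney 3.

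The FeD kidneys differed among themselves in Grem1 more than in most genes. The highest FeD kidney had 4.73-fold the normalized counts of the lowest, and the coefficient of variation was 78.3%. Among 12812 tested genes with an FeD mean of at least 50 normalized counts, the median coefficient of variation was 9.70%, and 61 genes, Grem1 included, had one at least as high as that of Grem1. Grem1 lies on the minus strand at chr2:113586321-113598803 of NCBIM37 (mm9). None of its exon bases overlapped another annotated gene, and none of its 100-base windows recurred in another protein-coding gene.

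**Figure D1:**
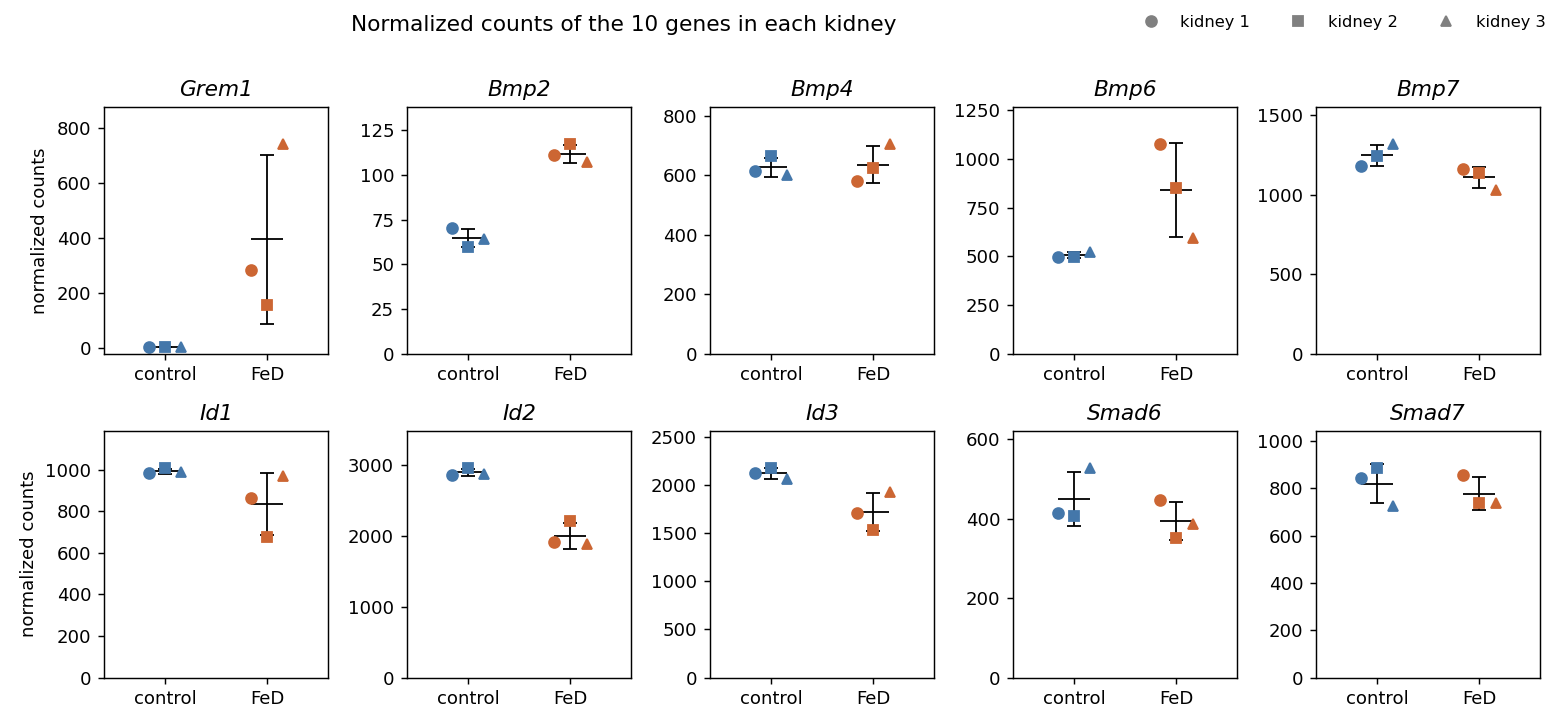
Normalized counts (y axis, linear) of the 10 genes in each control and FeD kidney (x axis, groups of 3). Symbols mark kidneys 1, 2 and 3, the long bar is the group mean and the whiskers are 1 SD. Grem1, Bmp2 and Bmp6 lie higher in every FeD kidney, Bmp7, Id1, Id2 and Id3 lie lower in every FeD kidney, and Bmp4, Smad6 and Smad7 overlap between the groups.

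RefSeq start site windows, 250 bases before to 50 after the start in the GRCm38.p6 build, were held for 6 of the 10 genes. The first 260 bases of 4 of them are shown, the antagonist beside a target gene lower in FeD, a feedback inhibitor and the iron-linked ligand. Capitals mark motifs searched on both strands: GGCGCC and GTCTAGAC, which SMAD1 and SMAD5 can bind, and ACGTG and GCGTG, the core letters bound by hypoxia-inducible factors. The windows are chr2:113758639-113758898 and chr12:25096083-25096342, both minus strand, chr9:64022050-64022309, minus strand, and chr13:38345466-38345725, plus strand, each written 5′ to 3′ along its gene.
Grem1: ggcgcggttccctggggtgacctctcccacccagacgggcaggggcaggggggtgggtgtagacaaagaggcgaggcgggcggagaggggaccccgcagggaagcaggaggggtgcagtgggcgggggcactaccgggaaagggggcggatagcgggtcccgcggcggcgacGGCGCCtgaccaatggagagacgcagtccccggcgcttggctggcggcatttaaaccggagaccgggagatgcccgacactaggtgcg
Id2: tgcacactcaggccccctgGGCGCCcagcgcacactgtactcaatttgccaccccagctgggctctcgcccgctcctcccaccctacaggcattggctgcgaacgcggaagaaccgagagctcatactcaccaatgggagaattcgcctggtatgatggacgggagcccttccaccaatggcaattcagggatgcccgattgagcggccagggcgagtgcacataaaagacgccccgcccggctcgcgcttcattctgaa
Smad6: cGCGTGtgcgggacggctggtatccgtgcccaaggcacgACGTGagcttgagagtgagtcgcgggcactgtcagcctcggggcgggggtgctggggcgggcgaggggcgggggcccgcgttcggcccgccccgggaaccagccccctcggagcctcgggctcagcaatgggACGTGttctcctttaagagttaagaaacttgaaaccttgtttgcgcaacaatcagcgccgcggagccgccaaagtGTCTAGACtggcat
Bmp6: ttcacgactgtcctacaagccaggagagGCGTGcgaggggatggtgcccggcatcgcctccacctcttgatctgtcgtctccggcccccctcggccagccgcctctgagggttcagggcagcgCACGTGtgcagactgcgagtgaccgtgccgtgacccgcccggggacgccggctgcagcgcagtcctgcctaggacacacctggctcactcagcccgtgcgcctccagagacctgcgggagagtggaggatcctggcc

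Counted from the start site, GGCGCC began at -78 in Grem1 and at -231 in Id2, and 11.9% of all 32851 RefSeq windows of this length held it. GTCTAGAC spanned the start of Smad6, a motif in 0.213% of all windows. In Bmp6 the 2 strands of ACGTG overlapped as CACGTG, beginning at -127, and GCGTG began at -222. Smad6, which overlapped between the groups, held ACGTG at -211 and -79 and GCGTG at -249. Of the windows not shown, Bmp4, which overlapped too, held CACGTG beginning at -188. Id3, which was lower in FeD kidneys, held GCGTG at -8. The Grem1 window held neither ACGTG nor GCGTG, and 43.8% of all windows held at least 1 of them. These are matches of letters, and binding was not measured.

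The ligands went different ways. Bmp2, which acts in bone, heart and kidney development, had 70.0, 59.8 and 64.1 normalized counts in control kidneys and 111, 117 and 107 in FeD kidneys. Every FeD kidney was higher, and the kidneys of each group lay close together. The means were 64.6 ± 5.14 and 112 ± 4.94, and the log2 fold change was 0.79 (SE 0.16), or 0.77 without FeD kidney 2. Bmp2 lies at chr2:133377895-133388621 on the same chromosome as Grem1.

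Bmp6, the ligand tied to iron in liver, had 498, 497 and 525 normalized counts in control kidneys and 1075, 851 and 594 in FeD kidneys. The groups did not overlap, but FeD kidney 3 stood only a little above the highest control kidney. The log2 fold change was 0.73 (SE 0.19), 0.74 without FeD kidney 2 and between 0.52 and 0.94 over all 6 libraries left out in turn. Within the FeD group Bmp6 was highest in kidney 1, at 1.81-fold kidney 3, where Grem1 was highest. Bmp6 spans chr13:38436995-38592183, and 6.58% of its exon bases overlap Txndc5 on the opposite strand, with which reads could be shared because the strand setting of the counting was not given.

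Bmp4, the main BMP of the mesenchyme around the ureteric bud, had 616, 664 and 602 normalized counts in control kidneys and 580, 625 and 704 in FeD kidneys. The groups overlapped, with a log2 fold change of 0.02 (SE 0.09) whose sign turned when some single libraries were left out. Bmp7, the BMP of the nephron progenitors and tubules, had 1179, 1246 and 1317 normalized counts in control kidneys and 1159, 1135 and 1033 in FeD kidneys. Every FeD kidney was below every control kidney by a small margin, and the log2 fold change was -0.17 (SE 0.07). Bmp4 lies at chr14:47003195-47010344 and Bmp7 at chr2:172693513-172765822.

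Of the target genes, Id1, Id2 and Id3 were lower in every FeD kidney than in any control kidney. Id2, an inhibitor of basic helix-loop-helix factors, had 2861, 2952 and 2869 normalized counts in control kidneys and 1911, 2210 and 1880 in FeD kidneys. All FeD kidneys lay well below the controls, with a log2 fold change of -0.53 (SE 0.07), or -0.59 without FeD kidney 2. Id3 had 2127, 2173 and 2063 normalized counts in control kidneys and 1713, 1528 and 1924 in FeD kidneys. The groups did not overlap, FeD kidney 3 came nearest to the controls, and the log2 fold change was -0.30 (SE 0.08), or -0.20 without FeD kidney 2. Id1 had 983, 1006 and 989 normalized counts in control kidneys and 863, 676 and 969 in FeD kidneys. FeD kidney 2 was lowest, FeD kidney 3 almost reached the controls, and the log2 fold change of -0.24 (SE 0.12) became -0.09 without FeD kidney 2.

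Smad6 and Smad7, the inhibitory SMADs that BMP signaling induces, overlapped between groups. Smad6 had 415, 407 and 527 normalized counts in control kidneys and 446, 351 and 388 in FeD kidneys, with a log2 fold change of -0.19 (SE 0.13). Smad7 had 846, 885 and 727 normalized counts in control kidneys and 858, 740 and 737 in FeD kidneys, with a log2 fold change of -0.07 (SE 0.10). Id1 lies at chr2:152561987-152563146, Id2 at chr12:25778666-25780957, Id3 at chr4:135699412-135701670, Smad6 at chr9:63800953-63869866 and Smad7 at chr18:75527183-75555589, all in NCBIM37. Summed over Id1 to Id4, normalized counts were 6783, 6949 and 6716 in control kidneys and 4852, 4730 and 5302 in FeD kidneys.

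All 10 genes passed the filter on low counts. At an adjusted P under 0.05 alone, 3 were higher (Grem1, Bmp2 and Bmp6) and 2 were lower (Id2 and Id3), beside 22.4% of all 15145 tested genes higher and 23.3% lower. With at least a 2-fold difference, Grem1 was the 1 gene higher, beside 4.34% of tested genes higher and 5.69% lower. In 7 of the 10 genes the groups did not overlap, as in 58.1% of all tested genes. Leaving out FeD kidney 3 added Id1 to the lower genes, making 3, and leaving out any other single library left only Id2. Bmp6 left the higher genes without control kidney 2. Since these genes were picked with this comparison known, the threshold is no test of them. Nothing is read from any of these counts or from their stability.

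Levels per kilobase of exon allow a rough comparison of genes. Lengths were those of all exons annotated for a gene in NCBIM37, and the annotation used in counting was not given. By this measure the Id genes were the most abundant of the 10 and Grem1 the least in control kidneys. Mean normalized counts per kb in control kidneys were 2279 for Id2, 1184 for Id3, 856 for Id1, 310 for Bmp7, 282 for Bmp4, 181 for Smad7, 143 for Smad6, 141 for Bmp6, 18.2 for Bmp2 and 0.636 for Grem1. In FeD kidneys Id2 stood at 1575, Bmp4 at 286, Bmp7 at 276, Bmp6 at 234 and Bmp2 at 31.4, and Grem1 had moved from last place to above Bmp2 with 95.1. Neighbours whose kidneys overlapped were Bmp7 and Bmp4, Smad7 and Smad6, and Smad6 and Bmp6 among controls. Among FeD kidneys they were Bmp4 and Bmp7, Bmp7 and Bmp6, Bmp6 and Smad7, and Smad6 and Grem1.

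Bmp3, an atypical BMP that opposes the signaling of other BMPs, had 281, 252 and 284 normalized counts in control kidneys and 1374, 1063 and 2435 in FeD kidneys. All FeD kidneys were far above the controls, and it rose with a log2 fold change of 2.58 (SE 0.28, edgeR with Benjamini-Hochberg adjustment, adjusted P = 0.000293), or 2.83 without FeD kidney 2. Bmp3 lies at chr5:99283458-99309979.

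Within the FeD group, Grem1 and Bmp3 shared an order, lowest in FeD kidney 2 and highest in FeD kidney 3. FeD kidney 3 had 4.73-fold the Grem1 and 2.29-fold the Bmp3 of FeD kidney 2. The same order was seen in 19.5% of all tested genes and in 106 of the 657 genes higher by at least 2-fold, or 16.1%.

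**Figure D2:**
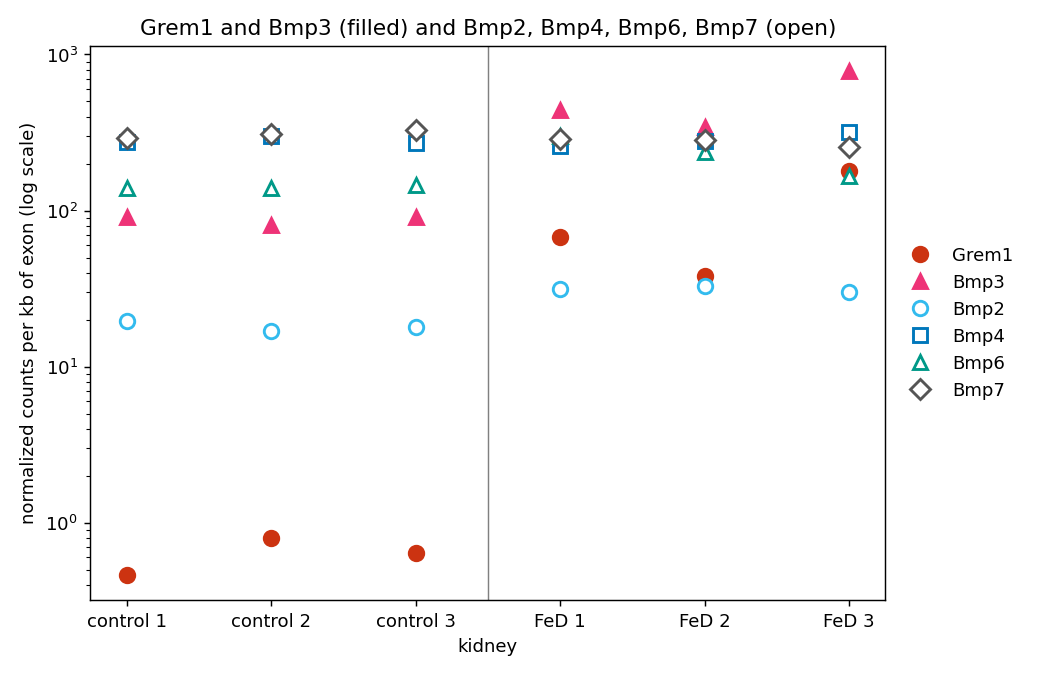
Normalized counts per kb of exon (y axis, log scale) in each of the 6 kidneys (x axis), 1 point per gene and kidney, for Grem1 and Bmp3 (filled symbols) and for Bmp2, Bmp4, Bmp6 and Bmp7 (open symbols). Grem1 lies under 1 in every control kidney and at 37.9 to 179 in FeD kidneys, and Bmp3 passes above all 4 ligands in FeD kidneys.

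Of 70 other genes listed by role, 59 passed the filter on low counts, and the 11 that did not include Hamp, Hamp2, Hfe2, Gdf2 and Bmp10. At an adjusted P under 0.05 (edgeR, Benjamini-Hochberg over all tested genes) 21 rose and 14 fell, together 59.3% beside 45.7% of all tested genes, and 24 did not pass. With at least a 2-fold change 7 rose and 6 fell. Without FeD kidney 2, 21 rose and 14 fell, 6 and 7 of them by at least 2-fold. The median log2 fold change of the 59 was 0.11, beside -0.0018 over all tested genes. The lists were drawn up with earlier results of these data known.

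Among 15 tested antagonists and modulators outside the cell, 4 rose and 6 fell. Sost, whose product sclerostin acts mainly on Wnt signaling, rose from 9.59, 8.85 and 12.5 normalized counts in control kidneys to 21, 40.3 and 33.7 in FeD kidneys (adjusted P = 0.00628, edgeR). Fst, which encodes the activin and BMP binder follistatin, fell from 294, 214 and 211 in control kidneys to 28.0, 76.6 and 14.7 in FeD kidneys (adjusted P = 0.00242, edgeR). FeD kidney 2 was the highest FeD kidney for Fst, and the log2 fold change of -2.66 became -3.48 without it. Kcp, a chordin-like protein that enhances BMP signaling rather than blocking it, fell by 1.09 on the log2 scale, from 549, 496 and 595 to 249, 240 and 279. Fstl3, a follistatin relative, fell by 1.12, with 47.3% of its exon bases overlapping Prss57 on the opposite strand. Nog (noggin), Chrdl1 and Sostdc1, which binds BMPs in kidney tubules, fell as well, with log2 fold changes of -0.76, -0.84 and -0.77. Bmper and Crim1 rose, with 0.90 and 0.30.

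Of the 6 other tested ligands, Bmp3 rose and Bmp5 and Gdf5 fell. Bmp5, a close relative of Bmp6 and Bmp7, had 67.1, 46.5 and 70.3 normalized counts in control kidneys and 9.0, 6.5 and 13.0 in FeD kidneys. Its log2 fold change was -2.64 (SE 0.32, edgeR, adjusted P = 0.000443), and 46.7% of its exon bases overlap Gm16662 on the opposite strand. Gdf5, best known from joint formation, fell by 2.24 on the log2 scale, from 20.1, 26.6 and 21.4 to 5.0, 1.30 and 6.91. Raw counts of Gdf5 in FeD kidneys were 5, 1 and 8, with FeD kidney 2 below the visible limit. The log2 fold change of Gdf5 was -1.885 with a prior count of 2 and -1.87 without FeD kidney 2. Of its exon bases 40.3% overlap Gm15557 on the opposite strand. Bmp8a, Bmp15 and Gdf7 did not pass the test.

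Of 10 receptors and co-receptors, 4 rose and 1 fell, each by less than 2-fold. The type II receptors Acvr2a, Bmpr2 and Acvr2b rose with log2 fold changes of 0.59, 0.56 and 0.40, and the type I receptor Bmpr1a with 0.33. Eng, the endothelial co-receptor endoglin, fell from 4888, 5168 and 5195 normalized counts to 3229, 3488 and 3978 (log2 fold change -0.51, edgeR, adjusted P = 0.00198). Of 5 endothelial markers 4 fell as well, with a log2 fold change of -1.04 for Emcn. Pecam1 did not pass, with a log2 fold change of 0.09 (edgeR, adjusted P = 0.517). The summed normalized counts of the 5 markers lay between 12111 and 12589 in control kidneys but between 7814 and 10545 in FeD kidneys. Their part in the result was not tested.

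Among the 4 SMADs that carry the signal 3 rose. Smad4, shared with the TGF-beta pathway, rose from 1279, 1249 and 1219 normalized counts to 1727, 1788 and 1994 (log2 fold change 0.56, SE 0.07, edgeR, adjusted P = 0.000502). Smad1 and Smad5 rose by 0.29 and 0.23 on the log2 scale (adjusted P = 0.0323 and 0.0318), calls that ended without single libraries. Without control kidney 1, 2 or 3 the adjusted P of Smad5 was 0.083, 0.081 and 0.12, and without control kidney 2, control kidney 3 or FeD kidney 2 that of Smad1 was 0.12, 0.11 and 0.058. Smad9 did not pass, at -0.32 (adjusted P = 0.117).

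Of 8 inhibitors within the cell or at its membrane, 3 rose and 2 fell. Smurf1, a ubiquitin ligase for SMAD1 and SMAD5, rose from 862, 848 and 845 normalized counts to 1370, 1274 and 1331, in groups that were tight and far apart. Its log2 fold change was 0.64 (SE 0.06, edgeR, adjusted P = 0.000173). The SMAD phosphatase gene Ppm1a and the co-repressor Tob1 rose by 0.49 and 0.48 on the log2 scale. Bambi, a decoy receptor that is also a BMP target, fell by 0.71, and Fkbp1a, whose product keeps type I receptors inactive, fell by 0.23.

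Of 4 other tested targets, Id4 and Atoh8 fell. Id4 had 811, 818 and 795 normalized counts in control kidneys and 365, 317 and 529 in FeD kidneys, a log2 fold change of -0.99 (SE 0.17, edgeR, adjusted P = 0.0021). It was -0.83 without FeD kidney 2, and 10.3% of its exon bases overlap A330033J07Rik on the opposite strand. Atoh8, a helix-loop-helix factor that BMP signaling and iron regulate in liver, had 228, 226 and 234 normalized counts in control kidneys and 125, 142 and 158 in FeD kidneys (log2 fold change -0.69, edgeR, adjusted P = 0.0026). Hey1 and Msx2 did not pass, with log2 fold changes of 0.40 and -0.53.

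Hamp, which encodes hepcidin, stayed too low to test. Its raw counts were 0, 1 and 2 in control kidneys and 13, 9 and 3 in FeD kidneys, and FeD kidney 3 was at the visible limit. Of 5 tested regulators that link BMP signaling to iron, 2 rose. Tmprss6, a protease that cleaves the BMP co-receptor hemojuvelin, rose from 11.5, 6.64 and 6.23 normalized counts to 25.0, 18.2 and 20.7 (log2 fold change 1.38, edgeR, adjusted P = 0.0128), a call that ended without control kidney 2 or 3, each with an adjusted P of 0.061. Neo1, the hemojuvelin-binding receptor neogenin, rose by 0.34 on the log2 scale, and Hfe, Tfr2 and Fam132b did not pass.

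The loop of Gdnf, Ret and Wnt11 that gremlin-1 permits in the embryonic ureteric bud was examined last. Of its 7 genes 4 rose and 1 fell. The receptor gene Ret had 23.0, 24.4 and 31.2 normalized counts in control kidneys and 65.0, 127 and 75.1 in FeD kidneys (log2 fold change 1.75, edgeR, adjusted P = 0.0024). Its co-receptor Gfra1, the ligand Gdnf and the target Etv5 rose by 1.19, 1.47 and 0.63 on the log2 scale. Ret and Gfra1 were both highest in FeD kidney 2, the library with adrenal genes. Without that kidney their log2 fold changes were 1.435 and 0.964, so that Gfra1 fell below 2-fold. The call for Gdnf ended without control kidney 2 or 3 or FeD kidney 1 or 3 (adjusted P = 0.084, 0.12, 0.072 and 0.071, edgeR). Wnt11, a tip gene of the ureteric bud, moved the other way, from 246, 220 and 210 normalized counts to 44.0, 57.2 and 57.0 (log2 fold change -2.09, SE 0.16, edgeR, adjusted P = 5.92e-05), with 10% of its exon bases overlapping Gm8398 on the opposite strand.

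**Figure D3:**
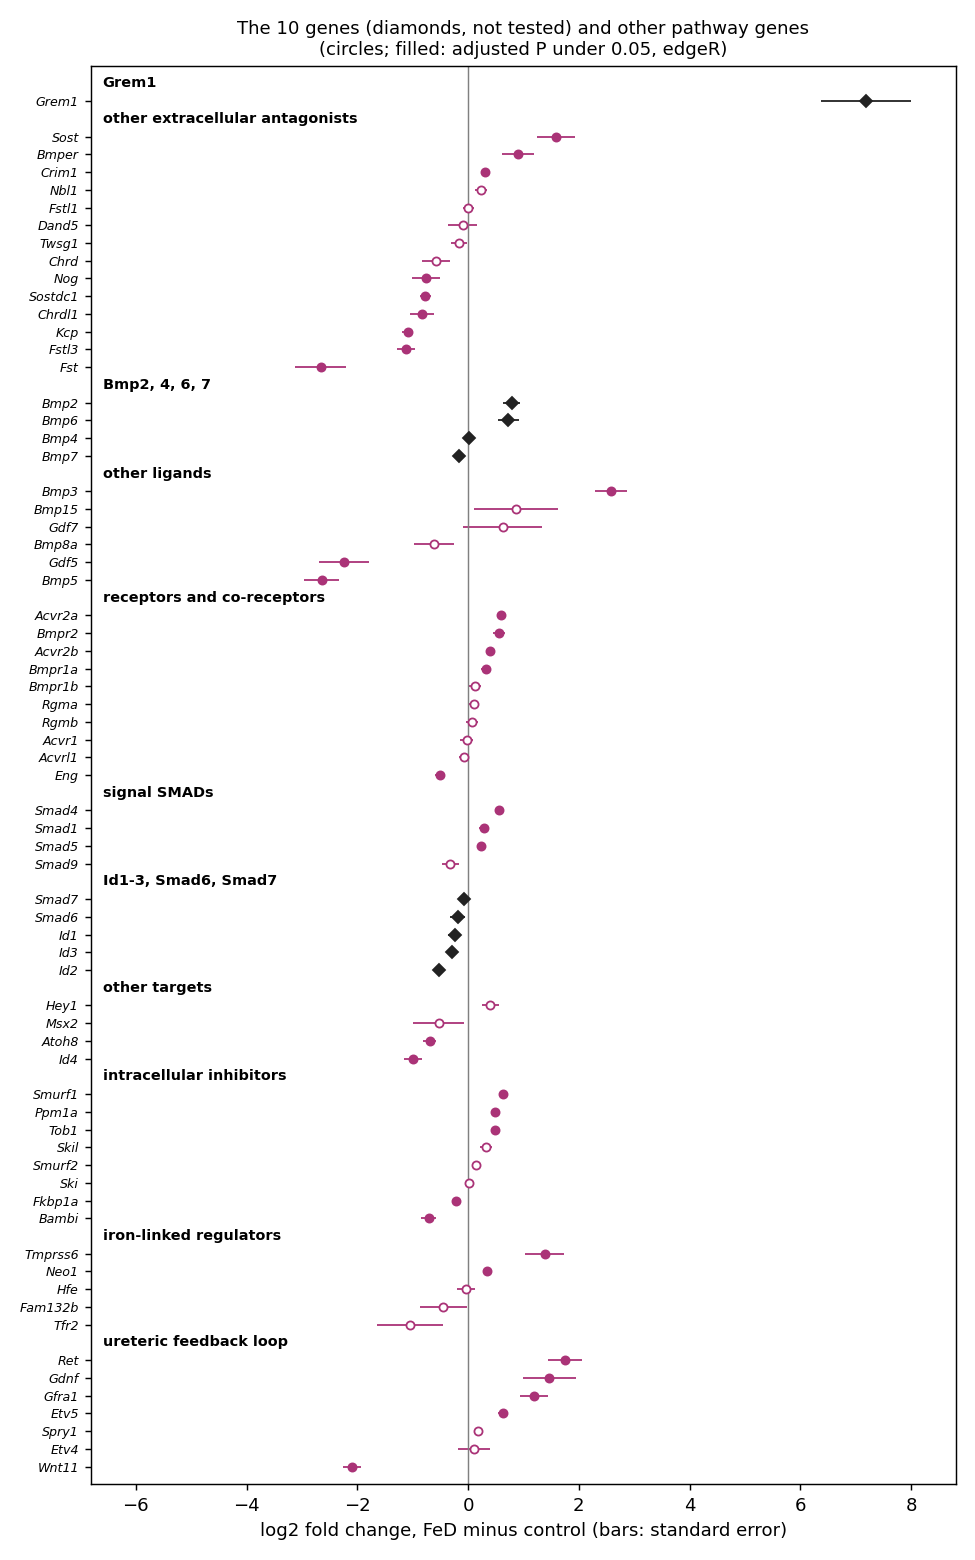
Log2 fold change of FeD over control (x axis) with its SE (whiskers) for the 10 genes (diamonds, not tested) and other pathway genes that passed the filter (circles, filled at an adjusted P under 0.05), grouped by role (y axis). Grem1 at 7.19 and Bmp3 at 2.58 lie farthest to the right, and Fst at -2.66 and Bmp5 at -2.64 farthest to the left.

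The 5 genes whose profile over the 6 kidneys was nearest to Grem1, by Euclidean distance between centred log2(normalized counts + 2) values, were Grp, Adam23, Cyp2j13, Sprr2f and Crisp1. Grp, which encodes gastrin-releasing peptide, was nearest at a distance of 1.53, with 1.92, 5.53 and 2.67 normalized counts in control kidneys and 233, 120 and 256 in FeD kidneys. Adam23, at 2.07, had 12.5, 18.8 and 13.4 normalized counts in control kidneys and 660, 626 and 561 in FeD kidneys. Cyp2j13, Sprr2f and Crisp1 followed at 2.18, 2.72 and 2.83. Crisp1 had no counts in any control kidney and 14, 23 and 88 raw counts in FeD kidneys. The 5 genes were picked by these same values, so their likeness to Grem1 is a description only. When profiles were scaled to unit SD none of the 5 remained, and with a pseudocount of 0.5 in place of 2, 4 remained.

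**Figure D4:**
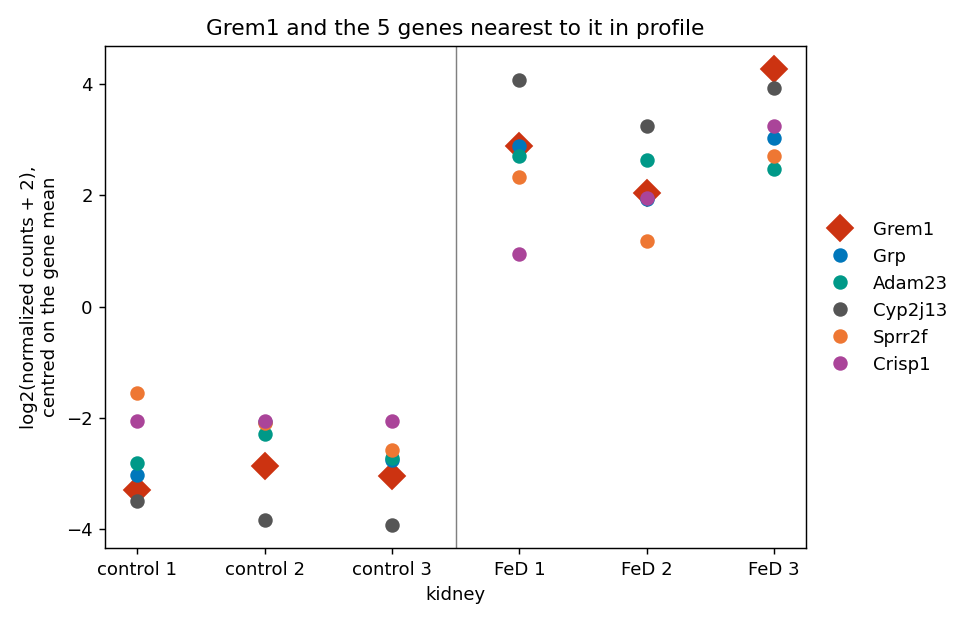
Log2(normalized counts + 2), centred on each gene's mean (y axis), in the 6 kidneys (x axis) for Grem1 (diamonds) and the 5 genes nearest to it (circles). All 6 genes lie below their mean in every control kidney and above it in every FeD kidney. For the 5 genes this follows from their choice by nearness to Grem1. Grem1 differs most between FeD kidneys 2 and 3.

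Gremlin is made by fibroblasts and smooth muscle in many organs, and markers of these cells did not move as a block. Among 8 fibroblast and pericyte markers 4 rose (Pdgfra, Pdgfrb, Dcn and the stromal progenitor gene Foxd1) and 3 fell (Lum, Col1a1 and Col3a1). The summed level of the list ran from 44874 to 47517 normalized counts in control kidneys and stood at 30366, 37522 and 41456 in FeD kidneys 1, 2 and 3. Most of that sum came from the collagen genes Col1a1, Col1a2 and Col3a1. Their means were 7756, 13188 and 16699 in control kidneys and 4422, 11086 and 8081 in FeD kidneys. The sum is therefore mainly a collagen level. Pdgfra had 3230, 3982 and 6083 normalized counts in FeD kidneys 1, 2 and 3, highest in the kidney with most Grem1. It was lowest in FeD kidney 1, whereas Grem1 was lowest in FeD kidney 2. Pdgfrb, Dcn, Col1a1 and Col1a2 were also highest in FeD kidney 3. Foxd1 was highest in FeD kidney 1, and Lum and Col3a1 were highest in FeD kidney 2. Of 6 smooth muscle markers 4 fell, with log2 fold changes of -2.31 for Cnn1 and -1.31 for Myh11, and Tagln rose. The part of these cells in the gremlin values was not tested.

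Other cell types also differed. Of all 44 tested markers 9 rose and 22 fell, and without FeD kidney 2 the counts were 8 and 20. Among the 9 was the adrenal gene Star, with 2817 raw counts in FeD kidney 2 and 140 to 219 in the other kidneys, whose log2 fold change of 3.16 (edgeR, adjusted P = 0.049) became 0.33 (adjusted P = 0.138) without that library. Slc34a1 of the proximal tubule and Slc12a3 of the distal tubule fell by 2.22 and 1.56 on the log2 scale and Aqp2 of the collecting duct rose by 1.13. Of 5 macrophage markers Cd68 and Itgam rose and Csf1r fell, 3 of 5 urothelial markers fell, and 4 of 5 fat markers fell, with summed fat markers at 2683 to 2984 normalized counts in control kidneys and 657 to 1031 in FeD kidneys. Their part in the values of the 10 genes was not tested.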

How the data were processed

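RNA-seq of 3 FeD and 3 control kidneys was analysed. The authors isolated total RNA, prepared TruSeq libraries from polyadenylated RNA, trimmed single-end reads with Trimmomatic, aligned them to mm9 with TopHat2 2.0.11 and counted uniquely mapped reads with HTSeq; CASAVA 1.8.2 and these names come from the submitters' processing notes and the methods. The deposited values are raw counts per gene symbol, without normalization or pooling. The annotation and strand setting were not given in the sources used here, so genes overlapping on opposite strands can share reads, and genes with near-identical copies can be undercounted. Groups came from the sample labels.

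In edgeR 4.0.16 (R 4.3.3), filterByExpr kept 15145 of 24422 genes, libraries were scaled by TMM, and FeD and control kidneys were compared by the two-sided quasi-likelihood test, P values being adjusted over all tested genes by the Benjamini-Hochberg method. SE is the log2 fold change divided by the square root of F. The procedure was tested on simulated data. For 1 gene in groups of 3, the smallest P of an exact permutation test is 0.1. Nothing says whether the 3 pups of a group shared a litter, so P values measure only the spread between these kidneys. The reads carry no molecular identifiers, so the floor of 3 counts and the interval of the Grem1 ratio (exact binomial, 95%) cover counting error only. Chi-square per degree of freedom between libraries of a group was at least 3.39, so no library was taken as deposited more than once.

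The 10 genes and all lists were chosen with earlier results of these data known. Named genes were the 10, in each pathway list those past an adjusted P of 0.05 and 2-fold or else up to 3 with the smallest adjusted P, in each marker list those past both thresholds, the 5 nearest to Grem1, and low genes without a test. A gene counted in the pathway lists is not reported here by name. Further genes named in the text to complete a list's count were added after their values were seen. Positions and exon lengths were taken from the GENCODE annotation of NCBIM37, where 84 of 85 listed genes matched. Promoter windows were read from RefSeq for GRCm38.p6, and no coordinate was converted between builds. Alternatives were library size alone or the size factors of DESeq2, other filters on low counts, DESeq2 1.42.0, a prior count of 2 in place of 0.125, the replicate number as a block, and each library left out.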

Additional observations from a re-analysis of the deposited data

How the results depend on the processing

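Over all genes, each of 12 alternatives kept the counts of called genes within 1.5 times the reported ones. With at least 10 counts required in every sample, Grem1 drops out by construction, so that 0 of the 10 genes were higher by at least 2-fold. Sost, Tmprss6 and Gdnf drop out on their own low counts, so that 4 other pathway genes in place of 7 were higher by at least 2-fold. With a library left out, the 10 genes included 1 to 3 lower at an adjusted P under 0.05. Over all tested genes the lower count moved as well, for example from 3527 to 2618 without control kidney 2. Nothing is read from the count among the 10, which were picked with this comparison known. Markers higher by at least 2-fold numbered 4 as reported, 2 when control kidney 3 was left out and 5 without a filter on low counts. The log2 fold change of Grem1 was 6.35 to 7.58 with a library left out and 6.44 to 7.25 under the other alternatives. Of genes nearest to Grem1, 0 of 5 remained with profiles scaled to unit SD.

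Replicate numbers did not pair the kidneys: deviations of kidneys with the same number correlated at -0.162, 9.75e-05 and -0.0348. With the replicate block, 655 genes were higher and 879 lower by at least 2-fold, 19 pathway genes rose and 13 fell, and Smad1 and Smad5 lost their calls (adjusted P = 0.059 and 0.052, edgeR). Calls also ended without a filter for Smad1 and Gdnf (0.051 and 0.056) and with DESeq2 for Tmprss6 (0.054). Another scaling moved the median log2 fold change of all genes to 0.0073 or -0.0038. Depth limits Grem1 in controls, Gdf5 in FeD kidneys and Hamp, which lie near 3 counts.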
